A study of Mus musculus with 93 samples.

Results

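The 8 genes described here make, remove or maintain DNA methylation in mouse cells. They were chosen by name as Dnmt1, Dnmt3a, Dnmt3b, Dnmt3l, Uhrf1, Tet1, Tet2 and Tet3, and all 8 were found among the 33924 gene names of the RNA count tables. RNA came from mouse embryonic stem cells of strain R1, kept in serum and the cytokine LIF. In set 1, 3 wild type libraries faced 3 of genotype Ring1b I53A, a point mutation in the catalytic subunit of Polycomb repressive complex 1. In set 2, 3 further wild type libraries faced 3 of genotype H1b/c/d/e-QKO, which refers to a knockout of linker histone genes. Each set thus had its own wild type, and no treatment or time course was involved in these 12 of the 93 samples of the series. The labels do not say whether a mutant line was 1 clone, or whether replicates were separate cultures. The p-values therefore rest on differences among libraries that may be technical only.

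Methylation of cytosine in the dinucleotide CpG is placed by DNA methyltransferases. Dnmt3a and Dnmt3b methylate new sites, and Dnmt3l, which has no catalytic activity of its own, binds and stimulates both. Dnmt1 copies the pattern onto the new strand after replication, guided by Uhrf1, a ubiquitin ligase that recognises CpG sites methylated on one strand. Tet1, Tet2 and Tet3 oxidise methylated cytosine and so start its removal. Embryonic stem cells are known for expressing both sides of this balance at once, with Tet1 and Tet2 as their main TET genes. DNA methylation itself was not measured in the files analysed here, and gene counts do not separate isoforms such as the short form of Dnmt3a.

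Libraries held between 12585621 and 23378930 counts, and the 8 genes together took between 0.204% and 0.313% of them. Replicates of a group differed by more than counting noise in every pair, so each library was counted once. Rnf2, the gene of Ring1b, had 93.5, 91.7 and 81.0 CPM (counts relative to the scaled library total) in I53A, against 182, 179 and 166 CPM in its wild type. This level does not check a point mutation. The linker histone genes did not bear out the QKO label. Counts of Hist1h1b were 62, 53 and 72 in the libraries so labelled, against 4, 9 and 2 in wild type. Those of Hist1h1c were 174, 129 and 202, against 143, 173 and 205. Hist1h1d and Hist1h1e had at most 15 counts in any of these libraries. Wild type counts of Hist1h1b, Hist1h1d and Hist1h1e were thus too low to show a loss. Reads from outside a deleted part would check nothing, so the group is called the libraries labelled QKO. The defining stem cell marker Pou5f1 stood between 1028 and 1384 CPM in all 12 libraries. In set 1, replicate 3 had the fewest counts in both groups and its tables are named in another style, so it was treated as a possible batch.

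The start regions of these genes differed widely in CpG content, the substrate of the enzymes that the genes encode. RefSeq (build GRCm38.p6) gave 15 promoter windows for the 8 genes, each running from 250 bases before to 50 bases after an annotated start. Below, the most CpG-rich window is printed for 5 genes, 5′ to 3′ on the strand of the gene, with every CpG in capitals. Dnmt1 and Uhrf1 are shown because their RNA moved together, and Tet2 because it moved in opposite directions in the mutants. Dnmt3a and Dnmt3l are shown because both moved the same way, with unlike CpG content in their richest windows. Gene counts do not tell which of several annotated starts was used, so the window printed may not be the one in use.
Dnmt1, chr9:20952574-20952873, minus strand: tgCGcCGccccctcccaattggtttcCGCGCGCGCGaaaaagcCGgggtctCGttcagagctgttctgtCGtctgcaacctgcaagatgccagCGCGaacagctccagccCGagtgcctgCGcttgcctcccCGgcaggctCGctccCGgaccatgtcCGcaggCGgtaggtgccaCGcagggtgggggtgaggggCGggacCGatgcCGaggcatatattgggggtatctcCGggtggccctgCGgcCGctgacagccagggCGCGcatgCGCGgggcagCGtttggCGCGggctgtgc
Uhrf1, chr17:56304063-56304362, plus strand: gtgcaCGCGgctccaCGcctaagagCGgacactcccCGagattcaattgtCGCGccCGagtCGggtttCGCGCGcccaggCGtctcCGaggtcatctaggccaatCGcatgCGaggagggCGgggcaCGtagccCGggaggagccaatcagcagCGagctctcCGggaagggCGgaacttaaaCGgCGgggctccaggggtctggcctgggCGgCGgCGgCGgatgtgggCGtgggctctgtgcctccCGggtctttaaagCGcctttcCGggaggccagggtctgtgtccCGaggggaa
Dnmt3a, chr12:3806910-3807209, plus strand: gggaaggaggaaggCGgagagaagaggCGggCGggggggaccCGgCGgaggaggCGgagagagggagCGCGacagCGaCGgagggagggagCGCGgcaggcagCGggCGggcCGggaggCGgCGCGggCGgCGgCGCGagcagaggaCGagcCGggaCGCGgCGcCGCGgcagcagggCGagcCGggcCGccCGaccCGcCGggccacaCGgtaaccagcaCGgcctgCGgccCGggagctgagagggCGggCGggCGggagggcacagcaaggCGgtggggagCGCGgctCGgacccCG
Dnmt3l, chr10:78042037-78042336, plus strand: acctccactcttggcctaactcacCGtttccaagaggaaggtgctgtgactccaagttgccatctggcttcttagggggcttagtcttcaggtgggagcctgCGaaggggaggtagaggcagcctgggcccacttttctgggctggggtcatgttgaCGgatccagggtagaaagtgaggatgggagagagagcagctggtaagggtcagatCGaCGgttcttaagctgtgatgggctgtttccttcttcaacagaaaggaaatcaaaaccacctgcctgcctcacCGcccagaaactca
Tet2, chr3:133544341-133544640, minus strand: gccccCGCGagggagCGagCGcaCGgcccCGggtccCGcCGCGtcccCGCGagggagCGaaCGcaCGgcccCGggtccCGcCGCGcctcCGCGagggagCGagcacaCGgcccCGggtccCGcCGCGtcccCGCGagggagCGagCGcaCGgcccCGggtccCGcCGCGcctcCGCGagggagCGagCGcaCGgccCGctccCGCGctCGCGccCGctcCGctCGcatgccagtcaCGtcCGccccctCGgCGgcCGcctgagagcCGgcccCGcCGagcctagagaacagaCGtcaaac

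The Tet2 window held 57 CpG sites, a number reached or passed in 0.152% of the 32851 RefSeq windows of this length. The 2 overlapping upstream windows of Dnmt3a held 46 and 47, and its last window, 84764 bases downstream of the first, held 18. Dnmt1 and Uhrf1 had 33 each in the windows shown, while the other windows of Dnmt1 held 2 and 12 and the other window of Uhrf1 held 12. The single windows of Dnmt3b, Tet3 and Tet1 held 30, 22 and 17. Dnmt3l had 6, 4 and 3 sites in its 3 windows, against a median of 7 over all windows, fewer in its richest window than any of the other 7 genes in theirs. An E2F-type motif was searched on both strands as TTTCCCGC, TTTGGCGC, TTTCGCGC or TTTGCCGC, since E2F factors are known to act at genes of DNA replication. The search was chosen after the windows were seen. The Dnmt1 window shown held TTTGGCGC and TTTCGCGC, the Uhrf1 window shown held TTTCGCGC, and the other 13 windows held none of these letters. Among all windows 2.26% held the motif, and among the 3837 windows with at least 30 CpG sites 5.06% did. These matches describe letters and not bound sites.

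**Figure D1:**
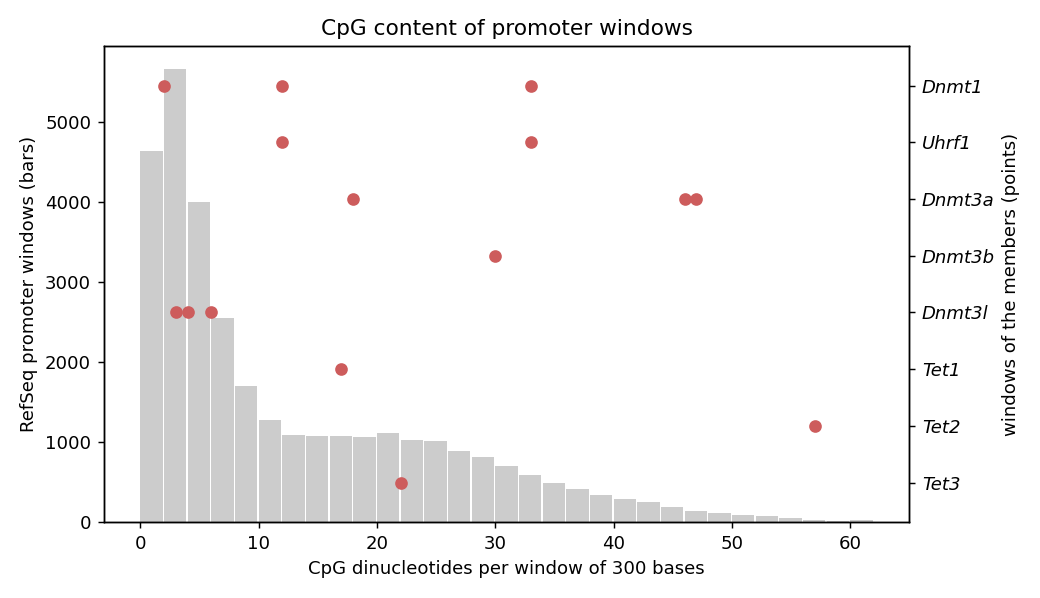
CpG sites per RefSeq promoter window of 300 bases (x axis) for all windows, as grey bars in bins of 2 counted on the left axis, and for the windows of the 8 genes, as red points in 1 row per gene. The 3 Dnmt3l windows lie at 6 sites or fewer, and the Tet2 window lies at 57.

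Levels of different genes were compared as CPM per kilobase of annotated exon. The exon length joins all isoforms, so it understates genes with many alternative exons such as Dnmt3a (16642 bases, against 2988 for Dnmt3l). In wild type of set 1 Dnmt3l was the highest, at 128 ± 1.31 CPM per kilobase (mean ± SD, n = 3, as throughout). Dnmt1 (98.1 ± 2.25), Uhrf1 (82.3 ± 4.19), Tet1 (65.5 ± 2.04), Tet2 (43.7 ± 0.542) and Dnmt3b (37.0 ± 1.64) followed, ahead of Dnmt3a (7.07 ± 0.163) and Tet3 (1.64 ± 0.280). No neighbours in this order overlapped over the 3 libraries.

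Wild type of set 2 had another order, led by Uhrf1 at 113 ± 2.32 CPM per kilobase, with Dnmt1 at 82.0 ± 0.720 and Tet1 at 54.0 ± 2.49. Dnmt3l ranked sixth there, at 13.0 ± 0.915, between Dnmt3b (16.4 ± 0.501) and Dnmt3a (8.86 ± 0.171). In CPM, wild type Dnmt3l was 9.79-fold, Dnmt3b 2.26-fold and Tet2 1.75-fold higher in set 1 than in set 2, while Uhrf1 was 1.37-fold and Dnmt3a 1.25-fold higher in set 2. The 2 sets carry differently named alignments, so culture, library and alignment cannot be told apart as sources of these gaps, which were not tested. The size of these gaps also depends on how the library totals are scaled. In I53A the order changed in 2 ways. Dnmt3b (43.5 ± 1.43) stood above Tet2 (27.6 ± 1.76), and the ranges of Uhrf1 and Tet1 overlapped. In the libraries labelled QKO, Dnmt3l moved above Tet2, at 42.0 ± 0.234 against 37.7 ± 0.976 CPM per kilobase.

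**Figure D2:**
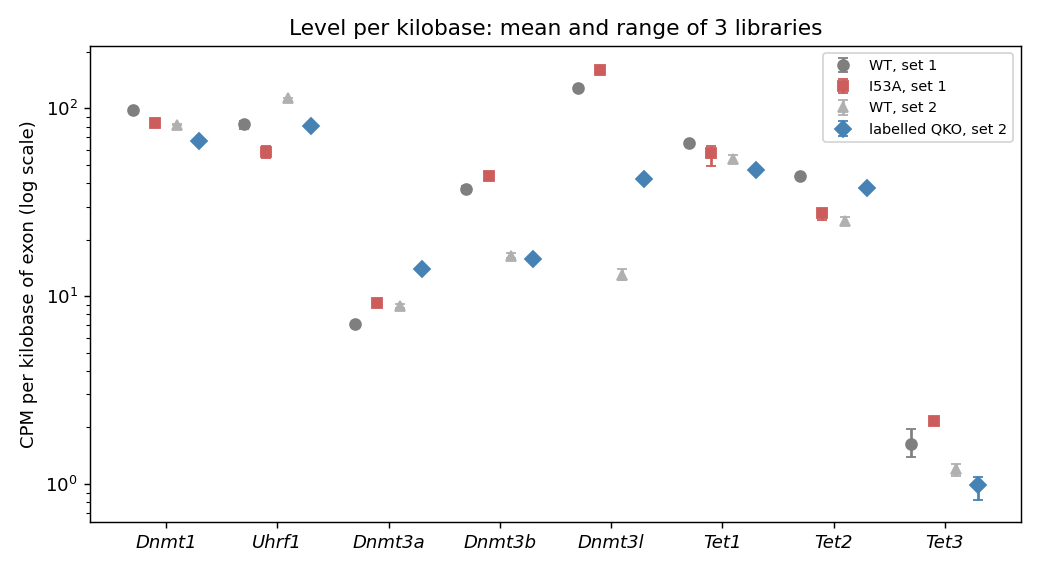
Mean level in CPM per kilobase of exon (log axis) for each gene in the 4 groups, with bars from the lowest to the highest of 3 libraries. Dnmt3l spans the widest range between groups, from 13.0 in wild type of set 2 to 161 in I53A, and Tet3 is the lowest gene in all 4 groups.

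Both genes of maintenance methylation fell in both mutants. One comparison asked what the Ring1b mutation changes, and the other what changes in cells labelled H1b/c/d/e-QKO. Uhrf1 (chromosome 17, 56442744 to 56462909 on the plus strand, mm9, the build of the count tables) stood at 364, 357 and 330.4 CPM in wild type of set 1 and at 267, 253 and 232 CPM in I53A. All 3 I53A libraries lay below all 3 wild type libraries. Wild type libraries of set 2 had 486, 485 and 468 CPM, against 345, 343 and 346 CPM in those labelled QKO. The groups were again apart, with the mutant libraries lower and close together. The fall was 1.41-fold in I53A (log2 fold change -0.50 ± 0.08 (SE), edgeR adjusted p = 0.00158) and 1.39-fold in the libraries labelled QKO (-0.47 ± 0.04, edgeR adjusted p = 2.2e-15).

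Dnmt1 (chromosome 9, 20711650 to 20757317, minus strand) fell less than Uhrf1. It stood at 524, 522 and 503 CPM in wild type of set 1 and at 457, 449 and 417 CPM in I53A. Levels in set 2 were 429.8, 429 and 436 CPM in wild type, against 349, 343 and 362 CPM in those labelled QKO. In both sets each mutant library lay below each wild type library. The log2 fold change was -0.24 ± 0.07 in I53A (edgeR adjusted p = 0.0211) and -0.29 ± 0.04 in the libraries labelled QKO (edgeR adjusted p = 7.3e-09). The I53A call was lost without wild type replicate 1 (adjusted p = 0.0827) or 2 (0.0692), or without I53A replicate 1 (0.0517) or 2 (0.0644), while the log2 fold change stayed between -0.27 and -0.21. The 3 same-numbered pairs of I53A and wild type, replicate 3 included, gave log2 ratios of -0.20, -0.22 and -0.27 for Dnmt1 and of -0.44, -0.50 and -0.51 for Uhrf1.

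Since Uhrf1 fell further, its level per kilobase relative to that of Dnmt1 was lower in the mutants too. The ratio was 0.858, 0.846 and 0.812 in wild type of set 1 and 0.724, 0.697 and 0.688 in I53A. Set 2 gave 1.398, 1.396 and 1.328 for wild type, against 1.222, 1.237 and 1.182 for the QKO label. These ratios were chosen after the values were seen and were not tested.

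Of the genes of new methylation, Dnmt3a and Dnmt3l rose in both mutants. Dnmt3a (chromosome 12, 3806007 to 3914443, plus strand) stood at 119, 115 and 120.0 CPM in wild type of set 1 and at 151, 155 and 155 CPM in I53A. Wild type of set 2 had 150.4, 147 and 145 CPM, and the libraries labelled QKO had 235, 233 and 233 CPM. The groups were apart in both sets. The rise was 1.29-fold in I53A (log2 fold change 0.37 ± 0.06, edgeR adjusted p = 0.0029) and 1.59-fold in the libraries labelled QKO (0.67 ± 0.04, edgeR adjusted p = 1.6e-19).

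Dnmt3l (chromosome 10, 77504692 to 77526367, plus strand) had the largest rise of the 8 genes in set 2. Its CPM were 36.6, 41.9 and 38.3 in wild type, against 125, 126 and 126 in the libraries labelled QKO. The groups did not overlap, and the rise was 3.24-fold (log2 fold change 1.70 ± 0.05, edgeR adjusted p = 3.6e-32). Set 1 libraries had far more, 377, 381 and 385 CPM in wild type against 488, 467 and 492 CPM in I53A. The rise there was 1.25-fold, again without overlap (0.33 ± 0.06, edgeR adjusted p = 0.0054). The highest library labelled QKO was still below the lowest wild type library of set 1. Exons of Dnmt3l share 67 bases with those of Aire on the other strand, and exons of Dnmt3a share 133 bases with Gm10485, so fragments there are uncertain.

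Dnmt3b (chromosome 2, 153475186 to 153513466, plus strand) moved little. It stood at 184, 184 and 198 CPM in wild type of set 1 and at 216, 219 and 230.1 CPM in I53A. The I53A libraries were all higher, by 1.16-fold (log2 fold change 0.22 ± 0.07, edgeR adjusted p = 0.0422), but the call was lost in 5 of the 6 fits that left out 1 library. Adjusted p was then 0.155 without wild type replicate 1, 0.15 without replicate 2, and 0.0908, 0.0895 and 0.0948 without I53A replicates 1, 2 and 3. With the replicate numbers as a block Dnmt3b stayed called (edgeR adjusted p = 2.1e-04), as it did on replicates 1 and 2 only (5.3e-04). Wild type of set 2 had 81.4, 83.0 and 86.4 CPM, against 82.3, 77.5 and 80.8 CPM under the QKO label. These groups overlapped and Dnmt3b was not called (-0.05 ± 0.05, edgeR adjusted p = 0.382). The same-numbered pairs of set 1 gave log2 ratios between 0.35 and 0.43 for Dnmt3a, 0.29 and 0.37 for Dnmt3l, and 0.21 and 0.26 for Dnmt3b.

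Dnmt3b as a share of Dnmt3a plus Dnmt3b, per kilobase, was 83.5%, 83.9% and 84.3% in wild type of set 1 and 82.4%, 82.2% and 82.9% in I53A. In wild type of set 2 the share was 63.8%, 64.7% and 66.1%, against 53.3%, 52.1% and 53.1% in the libraries labelled QKO. The mutant libraries were lower in both sets, and by more in set 2. These shares were chosen after the values were seen, were not tested, and carry the limit of the exon lengths given above.

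The TET genes went different ways. Tet2 (chromosome 3, 133126643 to 133207354, minus strand) fell in I53A and rose in the libraries labelled QKO. It stood at 404, 397 and 406 CPM in wild type of set 1 and at 260.1, 266 and 236 CPM in I53A. Wild type of set 2 had 228, 243 and 219.5 CPM, against 355, 348 and 337 CPM in those labelled QKO. Neither pair of groups overlapped. In I53A the level fell by 37.5% (log2 fold change -0.68 ± 0.07, edgeR adjusted p = 2.4e-04), the largest of the 8 genes in that comparison, and the rise in set 2 was 1.51-fold (0.60 ± 0.04, edgeR adjusted p = 8.2e-18).

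Tet1 (chromosome 10, 62267318 to 62361866, minus strand) had the highest counts of the group, from 9694 to 18697 per library. In wild type of set 1 it stood at 971, 988 and 929 CPM, and in I53A at 909, 926 and 723 CPM. Replicate 3 was the lowest of both groups, and all I53A libraries lay below all wild type libraries. Tet1 was not called (-0.19 ± 0.10, edgeR adjusted p = 0.162). With the replicate numbers as a block it was called lower (log2 fold change -0.20, edgeR adjusted p = 0.00624), as it was on replicates 1 and 2 only (-0.11, 0.0337), and the same-numbered pairs gave log2 ratios of -0.09, -0.09 and -0.36. Wild type of set 2 had 795, 831 and 757 CPM, against 703, 695 and 679.6 CPM under the QKO label, with no overlap. That fall was called (-0.19 ± 0.04, edgeR adjusted p = 2.5e-05), but not with the spread taken from all 12 libraries (adjusted p = 0.0562).

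Tet3 (chromosome 6, 83312367 to 83391672, minus strand), best known from oocytes and neurons, had between 139 and 459 counts per library. It stood at 17.6, 15.5 and 21.6 CPM in wild type of set 1 and at 24.2, 23.8 and 24.0 CPM in I53A. The I53A libraries were higher and close together, but the gene was not called (0.38 ± 0.13, edgeR adjusted p = 0.0553). With the replicate block it was called higher (adjusted p = 0.00295), as it was without wild type replicate 3 (0.00759). The pairs gave log2 ratios of 0.46, 0.62 and 0.15. In set 2 the levels were 14.1, 13.6 and 12.2 CPM for wild type, against 12.1, 9.10 and 11.5 CPM under the QKO label, apart by a small margin and called lower (-0.27 ± 0.11, edgeR adjusted p = 0.0398). DESeq2 did not call it (adjusted p = 0.119), nor did edgeR without wild type replicate 1 (0.12) or 2 (0.0853), without QKO replicate 2 (0.241), or with the spread of all 12 libraries (0.111).

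Tet2 took 39.3%, 38.6% and 40.4% of the summed TET level per kilobase in wild type of set 1 and 30.6%, 30.8% and 33.3% in I53A. It took 30.9%, 31.4% and 31.2% in wild type of set 2 and 44.1%, 44.0% and 43.7% in the libraries labelled QKO. The share was thus lower in I53A and higher in the libraries labelled QKO, each without overlap. It was chosen after the values were seen and was not tested.

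**Figure D3:**
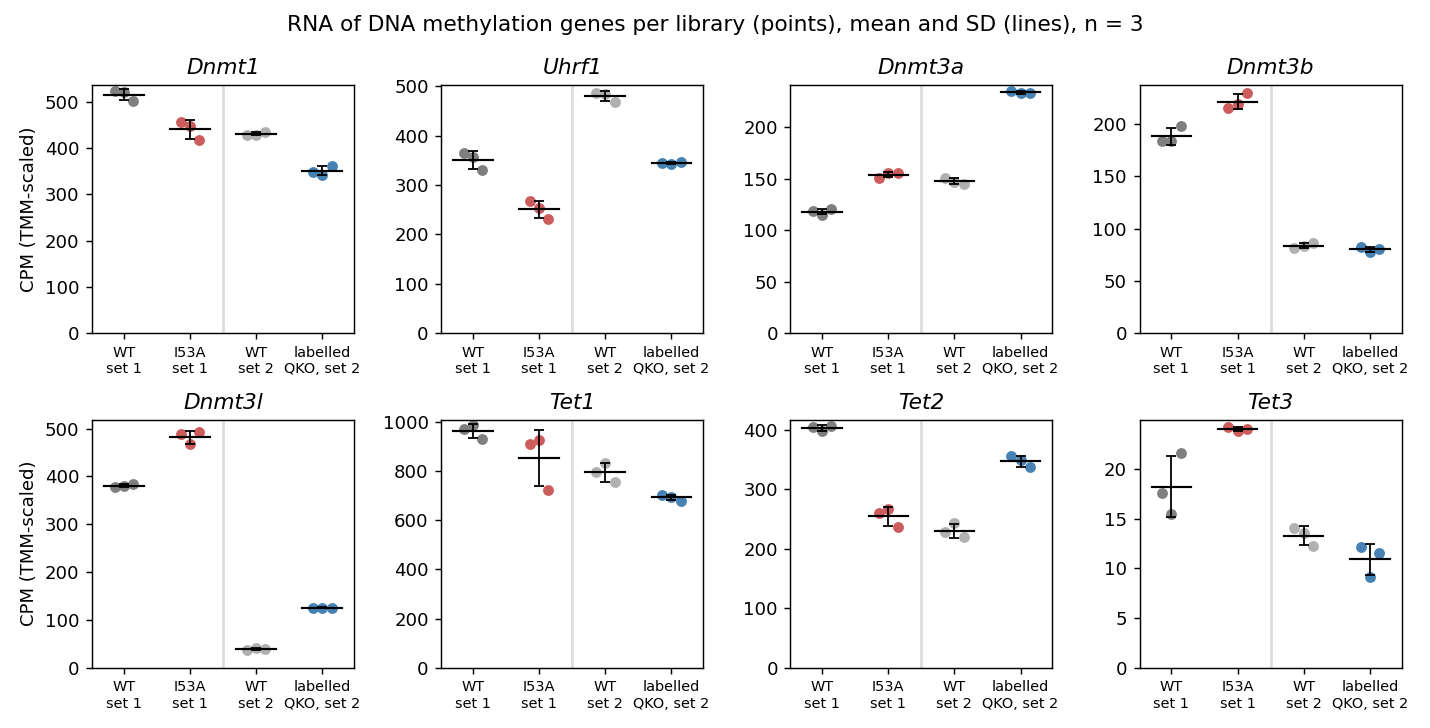
CPM of each gene in the 12 libraries (points, y axis from 0), with the mean and SD of 3 libraries per group as black lines. Uhrf1 and Dnmt1 are lower and Dnmt3a and Dnmt3l higher in both mutants than in their own wild type, while Tet2 is lower in I53A and higher in the libraries labelled QKO.

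In I53A, 6 of the 8 genes were called, 3 higher and 3 lower, where 35.5% of all 15536 genes tested were called (18.1% higher and 17.4% lower). In set 2, 7 of 8 were called, 3 higher and 4 lower, where 57.7% of 15439 genes were called (28.7% higher and 29.0% lower). The median absolute log2 fold change was 0.35 over the 8 genes and 0.32 over all genes in I53A, and 0.38 against 0.29 in set 2. All 8 genes had groups that did not overlap in set 1, as did 49.2% of all genes, and 7 of 8 in set 2, as did 61.4%. With the replicate block all 8 were called in I53A, 4 higher and 4 lower, where 56.6% of genes were called (28.1% higher and 28.5% lower). On replicates 1 and 2 only it was again 4 and 4, beside 26.7% and 26.4% of genes.

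Markers of other cell types moved with I53A. All 14 primitive endoderm markers rose, their summed level going from between 354 and 386 CPM in wild type to between 3373 and 3526 CPM. Pluripotency markers numbered 15 in the list, of which 14 were found by name. Among these 14, 5 fell and none rose (7 fell and 2 rose with the replicate block). Of 9 tested markers of primed epiblast 5 rose and 1 fell, with a sum of at most 178 CPM in wild type and 298 CPM in I53A. Gata4 rose from 2.52 ± 0.439 to 53.7 ± 4.95 CPM, and no primitive endoderm marker was at 0 in any group. Of 13 fibroblast markers 6 were tested and 5 rose, from a sum between 25.2 and 26.7 CPM to one between 64.5 and 71.5 CPM. Of the 13, 4 were at 0 in all wild type libraries and 1 in all I53A libraries. Markers near 0 in wild type could pass the filter on low counts only where the mutant was high. In wild type of set 1 these included the endoderm marker Foxa2 (0.0943 ± 0.0564 CPM) and the fibroblast marker Col1a2 (0.295 ± 0.0746 CPM). The counts of rising markers were therefore partly set by the filter. The part of these cells in the I53A results was not tested, and in bulk RNA fewer cells of a type and less RNA per cell cannot be told apart. In set 2 the primitive endoderm sum went from between 273 and 296 to between 374 and 385 CPM, with 7 of 12 tested markers higher, and Gata4 stood at 1.98 ± 0.200 and 1.36 ± 0.255 CPM. There 9 pluripotency markers rose and 4 fell, of 14 tested, and primed epiblast markers gave 4 and 3 of 7 tested. Of 5 tested fibroblast markers 3 rose, from a sum of at most 25.3 CPM to at most 45.7 CPM, with 7 of the 13 at 0 in all wild type libraries and 2 in all mutant ones. Their part in the set 2 results was not tested either. Beside these counts of markers, 35.5% of all genes were called in I53A (56.6% with the replicate block) and 57.7% in set 2.

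**Figure D4:**
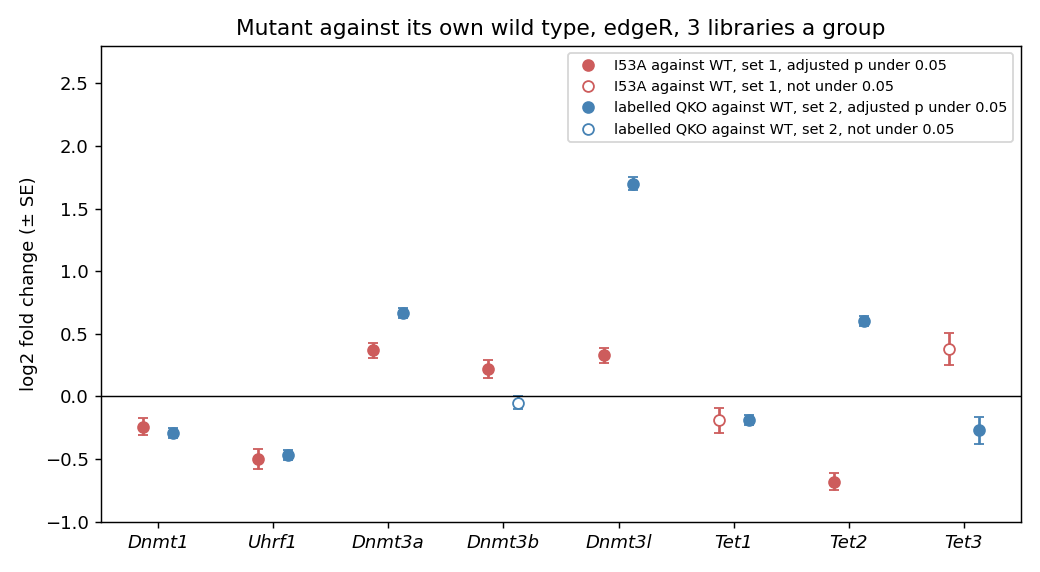
Log2 fold change of each mutant against its own wild type (points, ± SE), with filled points for an adjusted p under 0.05. The pairs of points lie close together for Dnmt1, Uhrf1 and Tet1, and on opposite sides of 0 for Tet2, where both are called, and for Dnmt3b and Tet3, where 1 of the 2 is called.

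The effects of the mutants were set against each other in a fit over all 12 libraries, as the I53A effect less the effect in set 2. Of the 8 genes 5 differed, 2 with a higher and 3 with a lower effect in I53A, where 36.1% of 16501 genes did (18.0% and 18.1%). Tet2 (log2 difference -1.25 ± 0.08, edgeR adjusted p = 5.3e-08) and Dnmt3l (-1.35 ± 0.08, edgeR adjusted p = 1.7e-08) had the largest differences. For Dnmt3l both effects were rises, the larger in set 2, from a wild type level far below that of set 1. Dnmt3a rose more in set 2 (-0.28 ± 0.07, edgeR adjusted p = 0.00541). Dnmt3b (0.29 ± 0.08, edgeR adjusted p = 0.00934) and Tet3 (0.68 ± 0.18, edgeR adjusted p = 0.00943) had the higher effect in I53A. No difference was called for Uhrf1 (-0.01 ± 0.08, edgeR adjusted p = 0.966), Tet1 (0.02 ± 0.11, 0.899) or Dnmt1 (0.07 ± 0.07, 0.513). A missed threshold does not show that these effects are equal. With the replicate number as a block, the calls among the 8 genes were the same for the difference, beside 48.9% of all genes (24.8% higher and 24.1% lower), and in set 2, beside 58.8% (29.3% and 29.6%).

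Other genes of the pathway were taken from lists. Of 19 partners and regulators of the methyltransferases, 6 fell and none rose in I53A (10 fell and 3 rose with the replicate block). In set 2, 8 rose and 4 fell. Of all genes, 35.5% were called in I53A (56.6% with the block) and 57.7% in set 2. Cdca7, which with the remodeller Hells is needed for methylation of heterochromatin, fell in both (-0.76 ± 0.08, edgeR adjusted p = 2.7e-04, and -0.71 ± 0.04, edgeR adjusted p = 1.0e-20). Prdm14, known as a repressor of Dnmt3a and Dnmt3b in stem cells, fell in I53A from 47.6 ± 4.79 to 34.6 ± 0.780 CPM (-0.48 ± 0.10, edgeR adjusted p = 0.00666). Trim28, a corepressor that keeps imprinted regions methylated together with Zfp57, rose in set 2 from 1509 ± 89.2 to 2465 ± 66.3 CPM (0.71 ± 0.04, edgeR adjusted p = 6.9e-22). Dppa3, a maternal factor that displaces Uhrf1 from chromatin, rose in set 2 at a low level, from 1.87 ± 0.134 to 3.74 ± 0.132 CPM. The medians of this list were -0.15 in I53A and 0.08 in set 2 on the log2 scale, against -0.001 and -0.003 over all genes.

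The next list held genes that act with TET enzymes or in the repair that completes demethylation. Of 19 tested, 2 rose and 7 fell in I53A (median log2 fold change -0.33), where 35.5% of all genes were called. With the replicate block 3 rose and 11 fell, beside 56.6% of all genes. In set 2, 3 rose and 8 fell (median 0.04), where 57.7% of all genes were called. The summed level of the list was between 1974 and 1991 CPM in wild type of set 1 and between 1533 and 1603 CPM in I53A. The glycosylase genes Neil1 (from 13.2 ± 1.81 to 6.45 ± 1.74 CPM) and Neil2 (from 20.7 ± 5.05 to 8.91 ± 3.14 CPM) fell in I53A. In set 2 the glycosylase gene Ung fell from 127 ± 12.5 to 72.0 ± 1.67 CPM, and Cxxc5, whose protein is related to the CXXC domain of TET enzymes, from 65.9 ± 3.98 to 34.8 ± 1.54 CPM.

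Germline genes whose promoters are known to be silenced by DNA methylation were also counted. Of 16, 13 rose and none fell in I53A (median log2 fold change 1.39), beside 18.1% of all genes called higher and 17.4% lower. With the replicate block 13 rose and 1 fell, beside 28.1% and 28.5% of all genes. Of 15 tested in set 2, 10 rose and 2 fell (median 0.52), beside 28.7% and 29.0% of all genes. The summed level of the list went from between 268 and 296 to between 667 and 716 CPM in set 1. In set 2 it went from between 216 and 229 to between 398 and 434 CPM. Mael, which acts in transposon silencing, rose from 8.03 ± 0.462 to 62.5 ± 4.00 CPM in I53A, and Sohlh2, a germ cell transcription factor, from 13.7 ± 0.597 to 103 ± 6.75 CPM in set 2. Genes near 0 in wild type, such as Tex101 (0.912 ± 0.774 CPM in set 1), could pass the filter on low counts only where the mutant was high. This list is no independent evidence of direction, since it was drawn up with earlier results of these data known.

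**Figure D5:**
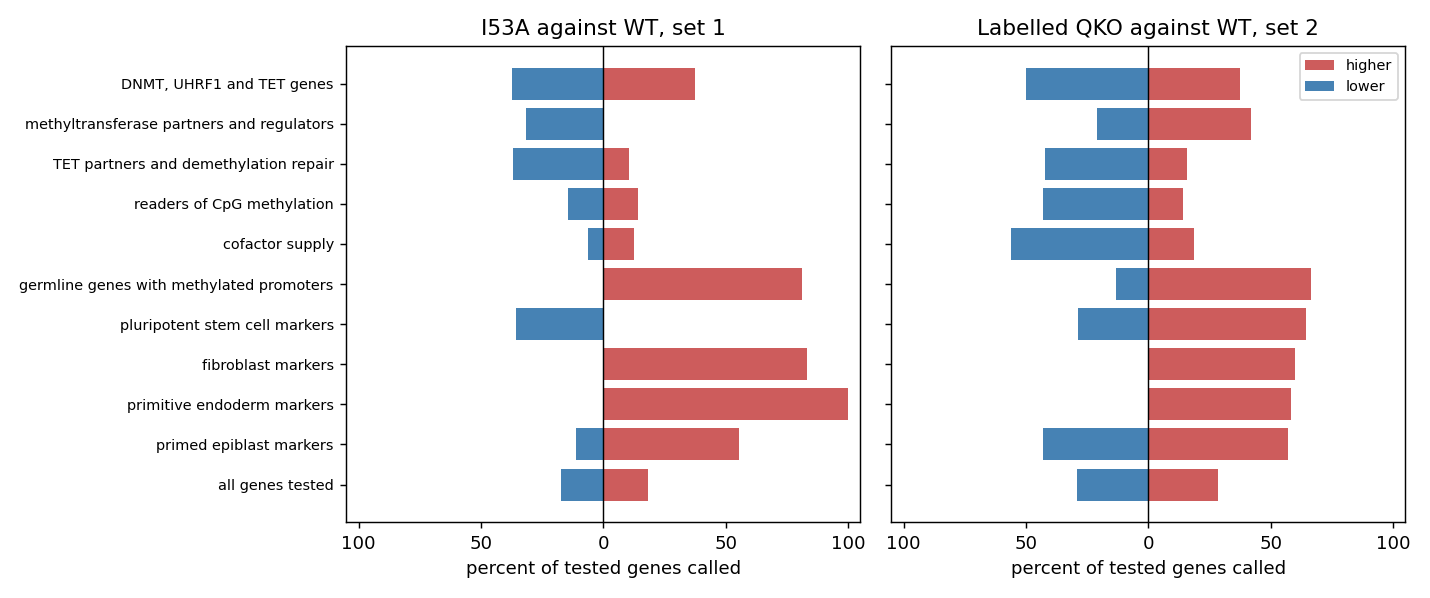
Share of tested genes called higher (red, to the right) or lower (blue, to the left) by edgeR in each list, for I53A and for the libraries labelled QKO, with all genes tested in the lowest row. Of 19 partners and regulators of the methyltransferases, 6 were called lower and none higher in I53A, while 8 were called higher and 4 lower in set 2.

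The genes whose pattern over the 12 libraries lay nearest to that of a member were found for the 3 members with the widest range between groups. The measure was the root mean square distance between log2(CPM + 1) values centred on the mean of each gene, over 12673 genes with a settled name. For Dnmt3l these were Tuba3a (0.21), Pnma5 (0.26) and Pou2f3 (0.29). Tuba3a, a tubulin gene, stood at 51.2, 69.0, 5.69 and 14.3 CPM on average in wild type and I53A of set 1 and in wild type and mutant of set 2. For Dnmt3b they were Cacnb3 (0.09), Arvcf (0.11) and Grn (0.11), and for Tet3 they were Zswim6, Akna and Pid1 (0.13 each). Among the 8 genes themselves Dnmt1 and Tet1 lay nearest to each other, at 0.08. Processing may be shared within a set, or differ for replicate 3 of set 1, so such distances describe these libraries.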

How the data were processed

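RNA was sequenced in 12 libraries, 4 groups of 3, grouped by their labels. The other 81 samples were not analysed here. For each library the authors deposited raw counts. Per the file headers, featureCounts (version 1.6.3) counted paired fragments for each gene name of GENCODE vM1 (mm9), with no option for strand or for fragments over several genes. Set 1 alignments carry TopHat in their names and those of set 2 do not, and the submitters' processing notes name HISAT2. Gene length, another value per the file headers, was used for levels per kilobase. Counts were scaled by TMM and tested across all genes with edgeR's quasi-likelihood test (version 4.0.16, R 4.3.3, filterByExpr defaults, robust, two-sided), with Benjamini-Hochberg adjustment and a threshold of 0.05. Each set was fitted on its 6 libraries, and the difference of the effects on all 12. The SE is the log2 fold change divided by the square root of the test's F value. CPM uses TMM scaling over all 12 libraries. Counts carry no molecular identifiers. DESeq2 (version 1.42.0) and the other settings were alternatives.

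Same-numbered libraries of set 1 deviated together from their group means (correlations 0.34, 0.39 and 0.61), so the numbers were taken as pairs there, a hint from the data and not from the labels. Replicates 1 and 2 correlated across numbers nearly as well (0.30 and 0.32), so the pairing rests mainly on replicate 3. Tests were checked on simulated data. The 8 genes and the lists were chosen with earlier results of these data known. Named genes are the 8 genes, the targeted genes, up to 4 called genes per list and comparison with the largest changes, chosen defining markers and the nearest patterns.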

Additional observations from a re-analysis of the deposited data

Results flagged for a closer look

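In 5 of the 8 genes the effect of I53A differed from that seen in the libraries labelled QKO, by the edgeR test of the difference itself, which called 36.1% of all 16501 genes (48.9% with the replicate block). Dnmt3l (log2 difference -1.35) and Dnmt3a (-0.28) rose more in set 2. Tet2 (-1.25) was called in opposite directions, lower in I53A and higher in set 2. Dnmt3b (0.29) was called higher in I53A and not called in set 2, and Tet3 (0.68) was not called in I53A and called lower in set 2. Groups of 3 libraries are too small for a test of single outlying libraries.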

How the results depend on the processing

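Over all alternatives run, Dnmt3a, Dnmt3l, Uhrf1 and Tet2 kept their direction and their call in both mutants, and the 5 called differences between the effects kept theirs. In I53A the number of genes called was 5512, against 8798 with the replicate block and 8343 on replicates 1 and 2 only, and 3828 to 5917 when 1 library was left out. The cause was not tested. When 1 library was left out, 2 to 4 of the 8 genes were called higher and 2 to 3 lower in I53A, 3 higher and 3 to 4 lower in set 2, and 2 higher and 3 lower for the difference. With the spread from all 12 libraries 2 of the 8 genes were called lower in set 2, not 4. Leaving out 1 library called 8071 to 8743 genes in set 2 and 5090 to 6573 for the difference. Dnmt3b in I53A lost its call without a filter (log2 fold change 0.21, adjusted p = 0.0791). The difference of the effects was near 0 and changed sign for Uhrf1 without a filter (7.6e-04) and with DESeq2 (6.4e-04), ranging from -0.05 to 0.05 when 1 library was left out. It changed sign for Tet1 with a filter of 1 CPM in 3 libraries (-4.6e-03), ranging from -0.04 to 0.13. None of these was called. In set 2 same-numbered libraries did not deviate together (correlations 0.02, -0.01 and 0.07), and the block called 9080 genes against 8903 and changed no call of the 8 genes. For the difference the block called 8076 genes against 5961 and changed no call of the 8. CPM scaled by TMM, over CPM from plain library totals, gave ratios of 0.938 to 0.957 in set 1 and 1.04 to 1.07 in set 2. Gaps between the 2 sets therefore shift with the scaling. Among the group means of CPM of the 8 genes, 25 moved by at least their SD under plain totals and 7 did not. Tet3 had the fewest counts of the 8 genes, 139 to 459 per library.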

Other observations

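Among readers of methylated CpG, Zbtb38 was called lower and Mbd1 higher in both mutants. Zbtb38, a zinc finger protein that binds methylated CpG, fell from 55.7 ± 8.66 to 24.6 ± 1.92 CPM in I53A (log2 fold change -1.19 ± 0.13, edgeR adjusted p = 3.3e-04). In set 2 it fell from 35.3 ± 1.95 to 17.1 ± 1.01 CPM (-1.04 ± 0.08, edgeR adjusted p = 1.9e-16). Mbd1, a methyl-CpG binding protein gene, rose in both (0.66 ± 0.09 and 0.43 ± 0.07). Of the 7 readers tested 1 rose and 1 fell in I53A (2 and 2 with the replicate block), where 35.5% of all genes were called (56.6% with the block). In set 2, 1 rose and 3 fell, where 57.7% of all genes were called.

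Genes that supply the methyl donor or the cofactor of TET enzymes formed another list. Of 16, 2 rose and 1 fell in I53A, where 35.5% of all genes were called. With the replicate block 6 rose and 3 fell, beside 56.6% of all genes. In set 2, 3 rose and 9 fell, where 57.7% of all genes were called. Idh2, a mitochondrial isocitrate dehydrogenase that makes the cofactor 2-oxoglutarate, fell from 143 ± 6.78 to 40.2 ± 0.938 CPM in the libraries labelled QKO (log2 fold change -1.83 ± 0.05, edgeR adjusted p = 2.3e-34). Ahcy, which clears the product of methyl transfer, fell from 146 ± 7.74 to 87.2 ± 0.376 CPM (-0.74 ± 0.05, edgeR adjusted p = 2.3e-19). For this list, 7 of 16 genes had a higher and 2 a lower effect in I53A than in set 2, by the edgeR test of the difference, which called 36.1% of all genes.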
